A study of Homo sapiens with 24 samples.

Results

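The HNRNP genes encode heterogeneous nuclear ribonucleoproteins, abundant nuclear proteins that coat new transcripts and mostly repress the use of nearby splice sites. Members were chosen by name: 10 genes (HNRNPA1, HNRNPA2B1, HNRNPC, HNRNPD, HNRNPDL, HNRNPH1, HNRNPK, HNRNPL, HNRNPM and HNRNPU) of 13236 gene groups in the tables. All 10 of 10 were found and none was merged with a neighbour. Their transcripts are divided into 152 of the 164219 bins, which are stretches of a gene counted separately. The authors marked 3 of these bins as detained introns, of 4769 in all, and 2 as cassette exons, of 4944 in all. The value of a gene is the sum of its bins without detained introns, and each bin is given as a percent of that sum.

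The RNA came from HEK293T, an established human embryonic kidney line that carries the SV40 large T antigen. Cells received DMSO, the vehicle, or 10 µM OSMI-2, which inhibits OGT, the enzyme that adds O-GlcNAc sugar to nuclear and cytosolic proteins. In a separate experiment they received DMSO or 5 µM TMG, which inhibits OGA (gene symbol MGEA5), the enzyme that removes this sugar. Both drugs were given for 2 h or 6 h, and no DMSO library serves more than 1 of the 4 drug comparisons. Polyadenylated RNA was sequenced in 8 groups labelled as 3 samples each, and 23 of the 24 libraries were analysed: OSMI-2 at 6 h has 2, and a further library of that group was not analysed here. Libraries of a group are called a, b and c, as the table columns name them. The labels do not say that replicates were separate cultures, so p-values measure only the spread between these samples, which may be technical.

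Libraries held 39.5 to 100.2 M counts, and a member gene had 7965 to 200832 counts in a library. The DMSO libraries of the OSMI-2 experiment stood apart at 6 h: detained introns took 0.756% to 1.21% of their counts, against 0.239% to 0.276% at 2 h and 0.286% to 0.328% after OSMI-2 for 6 h. DMSO library a of that 6 h group also stood apart in base composition. Its levels rose by 0.405 on the log2 scale for each 10 points of transcript GC, against 0.927 to 1.03 in the other 6 h libraries of that experiment. Values without this library are given below. In the TMG experiment the slopes ran from -0.463 to -0.201 over both times. All 8 markers listed for HEK293T were present, at uneven levels. VIM, the highest, ran from 287 to 989 CPM (counts per M counts of the library, after scaling). NEFM ran from 0.273 to 2.77 CPM and PAX2 from 1.14 to 4.31. The 8 together summed to 1060 to 1100 CPM after OSMI-2 for 6 h. They summed to 512 to 586 in its DMSO group and to 1120 to 1320 in DMSO at 2 h. Of 9 markers of other cell types, 2 (COL1A1 and COL3A1) were in the tables, summing to 5.92 to 24.9 CPM. The part of these differences in the results was not tested. In bulk RNA, fewer cells of a type and less RNA per cell cannot be told apart.

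Many RNA-binding proteins limit their own amount through their own transcripts. An exon that carries a premature stop codon, often called a poison exon, sends the spliced transcript to nonsense-mediated decay (NMD), and a detained intron keeps the transcript in the nucleus. HNRNPL, which binds CA-rich sequence, is a known case: an excess of its protein favours a poison exon in its own transcript. HNRNPD, also called AUF1, binds AU-rich elements and controls mRNA stability, and HNRNPDL is its close relative. Both are known for alternative splicing behind the stop codon that makes their transcripts targets of NMD.

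The poison exon of HNRNPL lies beside its detained intron, and its sequence is shown because both bins moved in the data. It is bin HNRNPL_E010 (70 bases, hg19, chr19:39332253-39332322, minus strand), between bin HNRNPL_E011 and the detained intron HNRNPL_E009 (chr19:39331200-39332252), behind which lies exon bin HNRNPL_E008. Of 2 annotated exons of that width, the bin was matched to the one in transcript HNRNPL-202, which GENCODE v29 labels as an NMD target, by its width and by the lengths of both flanking introns (2159 bases before it and 1053 bases behind it, the detained intron). GENCODE v29 uses GRCh38 and no coordinate was converted. The sequences are from that transcript, 5′ to 3′, and the capitals mark the in-frame stop codon. A length of 70 bases leaves a remainder of 1 when divided by 3, so the exon also shifts the reading frame.
HNRNPL_E011, the 73-base exon before: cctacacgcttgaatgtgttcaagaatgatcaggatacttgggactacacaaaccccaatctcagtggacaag
HNRNPL_E010, the first 59 bases of the poison exon, through its stop codon: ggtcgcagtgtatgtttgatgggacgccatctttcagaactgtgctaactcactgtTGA
HNRNPL_E008, the 72-base exon after, coding in the protein-coding transcripts: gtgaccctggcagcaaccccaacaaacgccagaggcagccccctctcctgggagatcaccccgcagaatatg

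The stop codon ends 11 bases before the 3′ end of the poison exon. Bin HNRNPD_E003 (hg19, chr4:83276048-83276154, minus strand, 107 bases) matched a single GENCODE v29 exon by width alone, without a comparison of flanking introns. That exon is in 1 NMD transcript and 0 protein-coding transcripts of HNRNPD and lies behind the stop codon. Bins HNRNPDL_E003 (102 bases) and HNRNPDL_E004 (42 bases) lie just before the most 3′ bins of HNRNPDL, and no exon of GENCODE v29 has their width. The same holds for HNRNPA1_E011, HNRNPA1_E014 and HNRNPA1_E015 near the 3′ end of HNRNPA1, which encodes a repressor of many cassette exons. The authors class HNRNPA1_E011 as part of a complex alternative last exon and the other 2 as unclassified.

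Against DMSO at 6 h, OSMI-2 for 6 h left the HNRNPC transcript lower and the HNRNPD transcript higher. The minor bins of HNRNPD, HNRNPDL, HNRNPA1 and HNRNPL lost share of their genes. All 3 detained introns of the family lost share too, as did most detained introns of other genes (89.6% of all introns tested passed). Those DMSO libraries themselves differed from DMSO at 2 h. There HNRNPD was lower by 1.17 on the log2 scale and HNRNPD_E003 higher by 1.78, while HNRNPC differed by 0.15 without passing. Neither gene call held with DMSO library c left out. After TMG for 6 h, HNRNPD fell by 0.21 and HNRNPDL by 0.28 on the log2 scale. Both calls were lost when some single libraries were left out. After OSMI-2 for 6 h, HNRNPDL had differed by 0.07 without passing. The share of HNRNPD_E003, matched by width to an NMD exon, rose 2.15-fold after TMG for 6 h. At 2 h no member gene passed the test under either drug. After TMG for 2 h, the detained introns of HNRNPL and HNRNPU gained share, each by 0.42 on the log2 scale. Over all introns tested there, the median was 0.30 and 13.8% passed. The HNRNPU call was lost without TMG library a or b.

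Gene levels were compared with edgeR's quasi-likelihood test, with Benjamini-Hochberg adjusted p under 0.05 as the threshold. After OSMI-2 for 6 h, 2 of 10 members passed, against 4.94% of all 12484 genes tested. HNRNPC (hg19, chr14:21677293-21737638, minus strand) binds U-rich tracts and keeps cryptic exons silent. It measured 1116, 928.5 and 1494 CPM in DMSO libraries a, b and c, and 512.5 and 303.7 CPM in OSMI-2 libraries a and b. The groups did not overlap, and HNRNPC fell by 1.53 (SE 0.37) on the log2 scale, to 0.346 of its DMSO level (adjusted p = 0.00801). Of its 10 bins, 9 had enough counts to be tested, and relative to the gene they differed by -0.05 to 0.05 on the log2 scale, and none was called. HNRNPC also varied within groups in this experiment. At 2 h it measured 1003, 981 and 440.6 CPM in DMSO and 632.3, 1116 and 446.4 CPM in OSMI-2. Each drug and time was scaled on its own libraries, so CPM of 2 h and 6 h are not compared here. HNRNPC has near-identical copies elsewhere in the genome, and how reads shared with them were counted is not given in the sources used here.

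The libraries with the lowest HNRNPC at 2 h, library c of each group, had the steepest GC slopes at that time, 1.02 in DMSO and 1.002 in OSMI-2, against 0.749 to 0.977 in the others. The GC content of HNRNPC transcripts, 39.2%, is at percentile 13.3 of genes. Transcripts of HNRNPD, HNRNPH1 and HNRNPU had lower GC content (percentiles 3.3, 3.7 and 8.1). In DMSO libraries a, b and c of 2 h, HNRNPD measured 823.1, 802.3 and 729.2 CPM and HNRNPH1 381.7, 361.4 and 328.9 CPM. HNRNPU measured 943, 1031 and 798.2 CPM there, and HNRNPK, at percentile 26.7, 1182, 1246 and 732.1 CPM. At 6 h, both OSMI-2 libraries (0.927 and 0.961) had slopes near those of DMSO libraries b and c, 1.03 and 0.966. Without DMSO library a, the library with the different slope, HNRNPC differed by -1.51 (adjusted p = 0.00829). In the TMG experiment, where slopes ran from -0.463 to -0.201, HNRNPC measured 1275 to 1468 CPM in every library. At OSMI-2 2 h, a GC term moved the HNRNPC difference without a call, as given in the closing section. Whether base composition has a part in these levels was not tested further.

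HNRNPD (chr4:83266027-83295149, minus strand) measured 467.1, 438.6 and 486.1 CPM in DMSO for 6 h and 1017 and 961.8 CPM in OSMI-2. Every OSMI-2 library was above every DMSO library, and the gene rose by 1.09 (SE 0.34) on the log2 scale, 2.13-fold (adjusted p = 0.0384). HNRNPM, a repressor that binds GU-rich sequence, measured 506.3, 504.1 and 565.4 CPM in DMSO and 1101 and 1038 CPM in OSMI-2. Its log2 difference of 1.03 (SE 0.34) did not pass (adjusted p = 0.055). HNRNPU, also known as scaffold attachment factor A, measured 706, 457.7 and 504.8 CPM in DMSO and 1073 and 1039 CPM in OSMI-2, a difference of 0.93 (adjusted p = 0.0865). For HNRNPA1, the DMSO values were 1777, 1319 and 1541 CPM and both OSMI-2 values 2352 CPM, a difference of 0.61 (adjusted p = 0.317).

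HNRNPK, which binds C-rich sequence, was the other of 6 members whose groups did not overlap (47.2% of all genes tested did not), with 956.7, 524.1 and 938.3 CPM in DMSO and 1213 and 980.3 CPM in OSMI-2 (log2 difference 0.44, adjusted p = 0.464). HNRNPA2B1, HNRNPDL, HNRNPH1 and HNRNPL overlapped between the groups. In 9 members the log2 difference was above 0 and in 1, HNRNPC, below it, with a median of 0.38 against 0.15 over all genes. These gene calls depended on single libraries. Without DMSO library a, 42.4% of all genes passed, and so did 8 members: HNRNPC and HNRNPD as before, and HNRNPA1, HNRNPA2B1, HNRNPDL, HNRNPH1, HNRNPM and HNRNPU, these 6 with log2 differences from 0.42 (HNRNPDL) to 1.18 (HNRNPU). Without DMSO library b, 1 member passed (HNRNPC, adjusted p = 0.0408; HNRNPD 0.162) with 2.59% of all genes, and without DMSO library c or either OSMI-2 library 0 passed (1.04%, 0% and 0% of all genes), with adjusted p of 0.093 to 0.887 for HNRNPC and 0.166 to 0.862 for HNRNPD. With library sizes scaled on genes alone, HNRNPD missed the threshold (0.86, adjusted p = 0.0923). With single libraries left out, HNRNPC ran from -1.96 to -1.20 and no fit changed the sign of either gene.

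**Figure D1:**
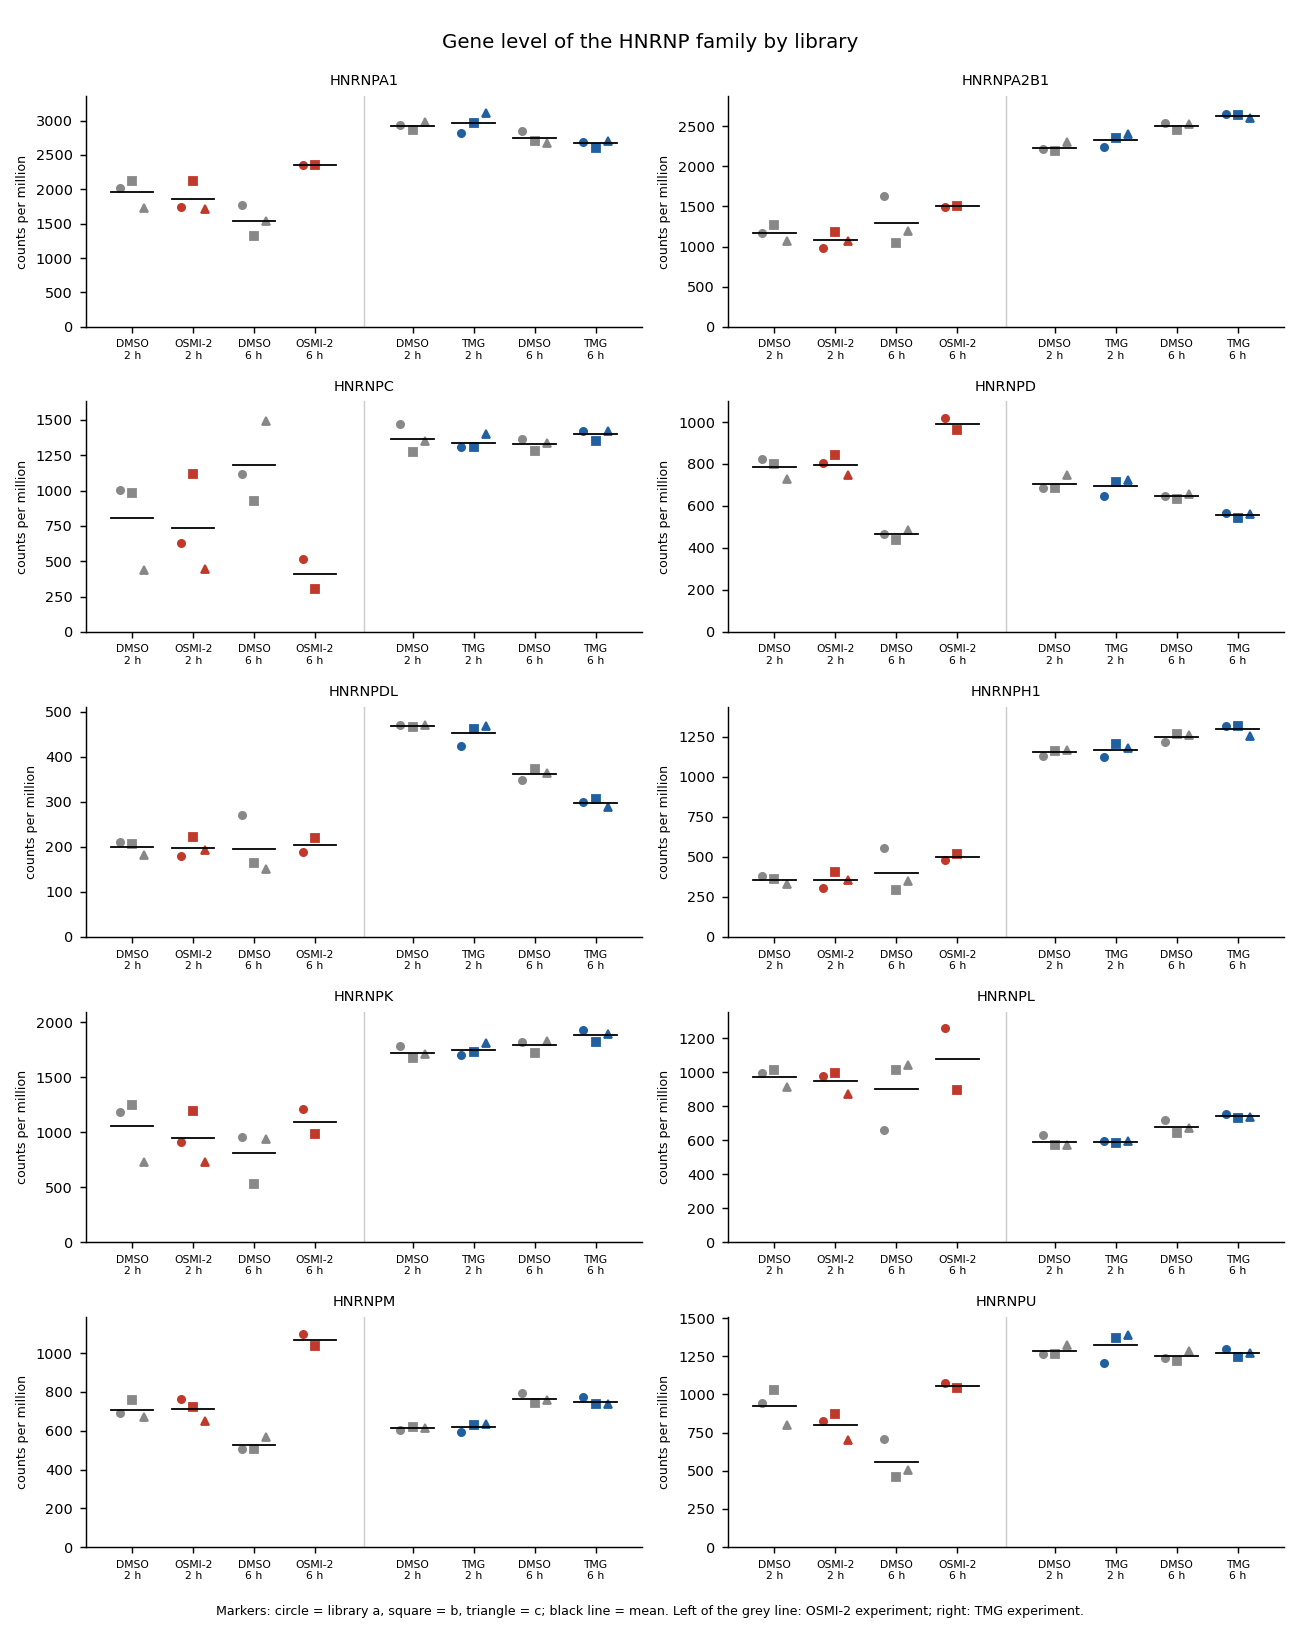
Level of each HNRNP gene in every library, in CPM (linear axis from 0), by group. Markers are libraries a (circle), b (square) and c (triangle), and black lines are group means. Each drug and time is scaled on its own libraries, so a group should be read against its own DMSO group only: after OSMI-2 for 6 h, HNRNPC lies below that group and HNRNPD, HNRNPM and HNRNPU lie above it.

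At 2 h of OSMI-2, 0 of 10 members passed by edgeR or DESeq2, against a background of 0% of 12343 genes, and 0 had an unadjusted p under 0.05. Their log2 differences ran from -0.21 (HNRNPU) to 0.02 (HNRNPD), with a median of -0.06. The effect of OSMI-2 at 6 h minus that at 2 h, tested as an interaction, did not pass for any member gene (lowest adjusted p = 0.143, background 0.111%). Under TMG for 2 h, 0 of 10 members passed by edgeR or DESeq2 and 0 had an unadjusted p under 0.05, although 7.91% of all genes passed. Differences there ran from -0.05 for HNRNPDL to 0.06 for HNRNPA2B1.

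After TMG for 6 h, 2 of 10 members passed, against 6.03% of 12103 genes. HNRNPDL (chr4:83343715-83351378, minus strand) measured 348.4, 372 and 364.8 CPM in DMSO and 298.6, 305 and 289.1 CPM in TMG. HNRNPD measured 645.6, 635.4 and 654.7 CPM in DMSO and 564.6, 543 and 563.7 CPM in TMG. For both genes every TMG library was below every DMSO library. HNRNPDL fell by 0.28 (SE 0.05) on the log2 scale (adjusted p = 0.00727) and HNRNPD by 0.21 (SE 0.06, adjusted p = 0.0327). These are losses to 0.823 and 0.863 of the DMSO level. The other 8 members differed by -0.04 to 0.13, with a median over all 10 of 0.04 against -0.03 over all genes. HNRNPDL lost its call without TMG library b (-0.30, adjusted p = 0.0547) or c (-0.26, 0.0693). HNRNPD lost its call without DMSO library c (-0.20, 0.0602) or without TMG library a, b or c (-0.22, -0.19 and -0.22, with 0.108, 0.156 and 0.126). HNRNPL passed without DMSO library a (0.18, adjusted p = 0.0282).

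**Figure D2:**
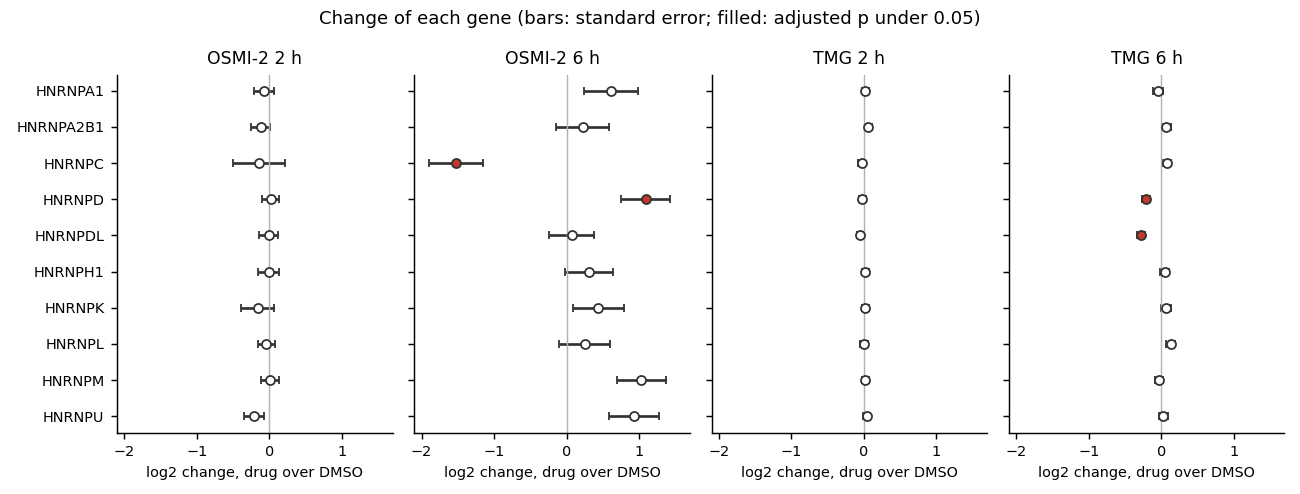
Log2 difference of each HNRNP gene, drug over DMSO, in the 4 drug comparisons, with bars for the standard error and filled points for an adjusted p under 0.05. HNRNPC (-1.53) and HNRNPD (1.09) are filled after OSMI-2 for 6 h and HNRNPD (-0.21) and HNRNPDL (-0.28) after TMG for 6 h. Standard errors in the OSMI-2 experiment are several times those in the TMG experiment.

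Detained introns were compared relative to their gene with limma on log2 of the bin over the gene, and adjusted over all detained introns. All 3 introns of the family lost share after OSMI-2 for 6 h, as did most introns of other genes: 89.6% of 4616 introns passed, 89.3% lower, with a median log2 change of -1.63. The members' counts are therefore near the background. The intron of HNRNPL (HNRNPL_E009, 1053 bases) held 1.95%, 1.30% and 1.13% of the gene in DMSO libraries a, b and c, and 0.387% and 0.587% in OSMI-2. It fell by 1.57 (SE 0.24, adjusted p = 0.000487). The intron of HNRNPM (HNRNPM_E015, chr19:8548096-8550486, 2391 bases) went from 0.535%, 0.774% and 0.541% to 0.129% and 0.118% (log2 change -2.29, SE 0.19, adjusted p = 9.54e-05). The intron of HNRNPU (HNRNPU_E014, chr1:245023777-245025762, 1986 bases) went from 0.609%, 0.444% and 0.400% to 0.0878% and 0.0890% (-2.42, SE 0.20, adjusted p = 9.54e-05).

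For each of these introns the OSMI-2 libraries lay below all DMSO libraries of 6 h. They lay close to the DMSO libraries of 2 h, in which HNRNPL_E009 held 0.434% to 0.511%, HNRNPM_E015 0.139% to 0.202% and HNRNPU_E014 0.0444% to 0.0644%. Leaving out any single library left all 3 introns called. At 2 h of OSMI-2, 0 of the 3 introns passed by limma or by the authors' adjusted p (0.0643% of all introns passed by limma). By limma, 0 of the 3 had an unadjusted p under 0.05, as did 177 of all 3111 introns. The drug's effect at 6 h differed from that at 2 h by -1.40 for HNRNPL_E009, -2.14 for HNRNPM_E015 and -2.20 for HNRNPU_E014, and each difference passed (adjusted p from 8.7e-05 to 0.000978, background 74.6%).

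After TMG for 2 h, HNRNPL_E009 held 1.22%, 1.53% and 1.41% of the gene in DMSO and 1.83%, 2.01% and 1.71% in TMG, and the groups did not overlap. It rose by 0.42 (SE 0.08, adjusted p = 0.00381). HNRNPU_E014 rose by the same 0.42 (SE 0.09, adjusted p = 0.0107), from 0.204%, 0.200% and 0.225% to 0.294%, 0.288% and 0.260%. HNRNPM_E015 held 0.108%, 0.117% and 0.136% in DMSO and 0.215%, 0.178% and 0.129% in TMG; the groups overlapped and the difference of 0.50 did not pass (adjusted p = 0.101). The background was 13.8% of 4031 introns, with a median of 0.30. HNRNPU_E014 lost its call without TMG library a or b (adjusted p = 0.0629 and 0.0605), and HNRNPM_E015 passed without TMG library c (0.70, adjusted p = 0.0299). In the authors' deposited table, the adjusted p at TMG 2 h was 0.061 for HNRNPL_E009 and 0.0213 for HNRNPU_E014. At 6 h of TMG, 0 of 3 introns passed by limma or by the authors' adjusted p (0.0957% of all introns passed by limma). By limma, 0 of the 3 had an unadjusted p under 0.05, as did 307 of all 4181 introns. HNRNPU_E014 passed there without DMSO library b (0.67, adjusted p = 0.00226).

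**Figure D3:**
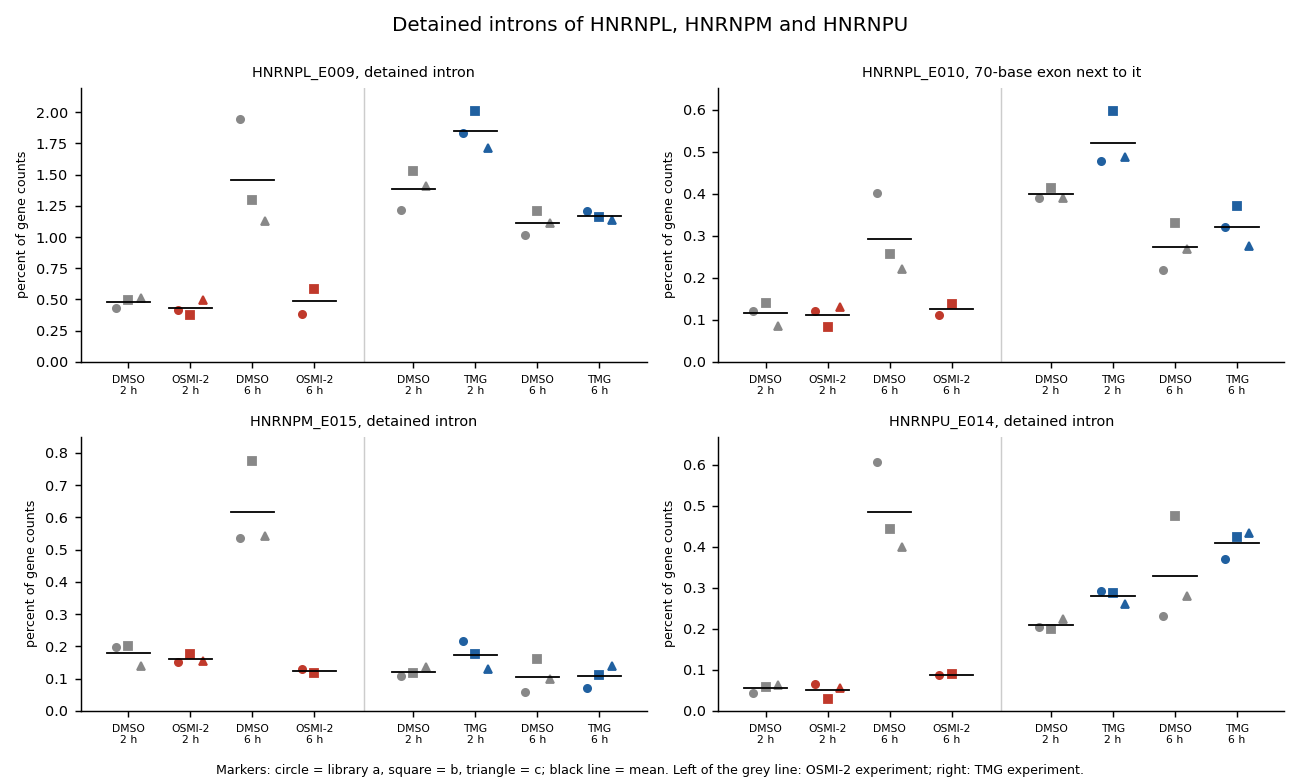
Share of the gene's counts, in percent on linear axes from 0, held by the detained introns of HNRNPL, HNRNPM and HNRNPU and by the 70-base exon bin of HNRNPL, in every library. Markers are libraries a, b and c, and black lines are group means. The DMSO libraries of 6 h in the OSMI-2 experiment lie above the other groups of that experiment in all 4 panels, and the OSMI-2 libraries of 6 h lie near the 2 h level.

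Most bins of the family are neither detained introns nor cassette exons, so the same limma test was also run over bins of every class, a test chosen after seeing the data. After OSMI-2 for 6 h, 19 of 150 member bins passed, 12.7% against 5.59% of all 130783 bins. Of these, 13 were lower (4.9% of all bins) and 6 higher (0.689% of all bins). A count model, edgeR's diffSpliceDGE, called 9 member bins and 2.45% of all bins, and 24 had an adjusted p under 0.05 in the authors' deposited table, where 6.46% of all bins did. No library left out alone took the count below 12 or above 20.

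Bin HNRNPD_E003 was matched to an NMD exon by width alone. The bin held 1.06%, 0.804% and 0.711% of the gene in DMSO for 6 h and 0.181% and 0.156% after OSMI-2. It fell by 2.32 (SE 0.15, adjusted p = 1.46e-05), in the condition in which the gene level rose. The OSMI-2 values were below those of DMSO at 2 h, 0.203% to 0.279%. Counts in the bin ran from 80 to 268 per library in this experiment's DMSO groups, and 95% exact binomial limits for a library reached at most 0.13 percentage points to a side, for counting error only. HNRNPDL_E003 went from 6.15%, 4.90% and 5.25% of its gene to 2.74% and 2.76% (log2 change -0.98, SE 0.09, adjusted p = 5.33e-05). Its neighbour HNRNPDL_E004 went from 2.30%, 2.04% and 2.55% to 0.712% and 0.695% (-1.69, SE 0.11, adjusted p = 1.3e-05). In neither bin did the groups overlap, although diffSpliceDGE did not call HNRNPDL_E003 (adjusted p = 0.308), while the level of the HNRNPDL gene overlapped between them (270.6, 163.1 and 150.4 against 188.3 and 219.9 CPM).

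Of the bins at the 3′ end of HNRNPA1 (gene at chr12:54674489-54680875, plus strand), HNRNPA1_E011 (chr12:54678102-54678332) went from 0.656%, 0.416% and 0.370% to 0.0828% and 0.107%, a log2 change of -2.30 (SE 0.20, adjusted p = 4e-05). HNRNPA1_E014 fell by 2.02 (SE 0.15) and HNRNPA1_E015 by 1.44 (SE 0.12), with adjusted p of 2.06e-05 and 4.24e-05. HNRNPA1_E014 went from 2.32%, 1.54% and 1.49% to 0.409% and 0.450%. HNRNPA1_E012, between them, rose by 0.13 (adjusted p = 0.0485). HNRNPA1 has many processed pseudogenes, and how the counting treated reads shared with such copies is not given in the sources used here, so its bins are uncertain to that extent. In HNRNPA2B1, a close relative of HNRNPA1, the most 3′ bin HNRNPA2B1_E001 (536 bases) went from 0.867%, 0.723% and 0.733% to 0.442% and 0.474%, a fall of 0.75 on the log2 scale (adjusted p = 0.000191, but 0.221 by diffSpliceDGE).

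The poison exon HNRNPL_E010, whose sequence is given above, moved with the intron beside it. It held 0.401%, 0.257% and 0.220% of HNRNPL in DMSO and 0.112% and 0.138% after OSMI-2, and fell by 1.18 (SE 0.22, adjusted p = 0.0058). This rests on 67 to 144 counts per library. diffSpliceDGE did not call it (adjusted p = 0.156) and the authors' deposited table gives an adjusted p of 0.00811. It also lost its call without OSMI-2 library a (-1.03, adjusted p = 0.101). Whether reads of the detained intron reached into the exon cannot be read from bin counts.

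The other called changes were mostly smaller. HNRNPH1, which binds runs of G, had 3 neighbouring bins that rose (HNRNPH1_E014 by 0.24, HNRNPH1_E015 by 0.26 and HNRNPH1_E016 by 0.25). These bins lie towards the 5′ end of this minus-strand gene. There HNRNPH1_E017 differed by 0.19, and at the 3′ end HNRNPH1_E001 to HNRNPH1_E005 differed by -0.19 to -0.08, none called. In HNRNPDL, also on the minus strand, HNRNPDL_E002 differed by -0.21 and HNRNPDL_E010 by 0.22, neither called. The tested bins of HNRNPC differed by -0.05 to 0.05. Whether reads were spread differently along transcripts was not tested. HNRNPK_E018, in a complex first exon, rose by 0.48, HNRNPDL_E009 by 0.21, and HNRNPM_E003 fell by 0.22. HNRNPM_E004, 8 bases long, fell by 0.96, from 2.15%, 3.69% and 3.83% to 1.83% and 1.41%, but in other groups it was between 0 and 2 counts in some libraries and 1.48% of the gene or more in others of the same group. The 9 bins called by diffSpliceDGE were HNRNPA1_E011, HNRNPA1_E014, HNRNPA1_E015, HNRNPD_E003, HNRNPDL_E004, HNRNPM_E004 and the 3 introns. It did not call HNRNPA1_E012, HNRNPA2B1_E001, HNRNPDL_E003, HNRNPDL_E009, the 3 bins of HNRNPH1, HNRNPK_E018, HNRNPL_E010 or HNRNPM_E003. Calls for HNRNPA1_E012, HNRNPDL_E009, HNRNPH1_E014, HNRNPH1_E015, HNRNPH1_E016, HNRNPK_E018, HNRNPM_E003 and HNRNPM_E004 were each lost when some single library was left out, with adjusted p from 0.0545 to 0.485.

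The cassette bins of HNRNPA1 (HNRNPA1_E003) and HNRNPU (HNRNPU_E007) did not pass in any of the 4 drug comparisons by limma or by the authors' adjusted p. Their log2 changes ran from 0.00 to 0.06, the lowest adjusted p was 0.791, and 1 unadjusted p was under 0.05 (HNRNPA1_E003 at TMG 2 h, 0.00138). The background of called cassette bins was 0%, 0.926%, 0% and 0.0542% for OSMI-2 at 2 h and 6 h and TMG at 2 h and 6 h. HNRNPA1_E003 held 9.47% to 11.45% of its gene over all libraries.

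**Figure D4:**
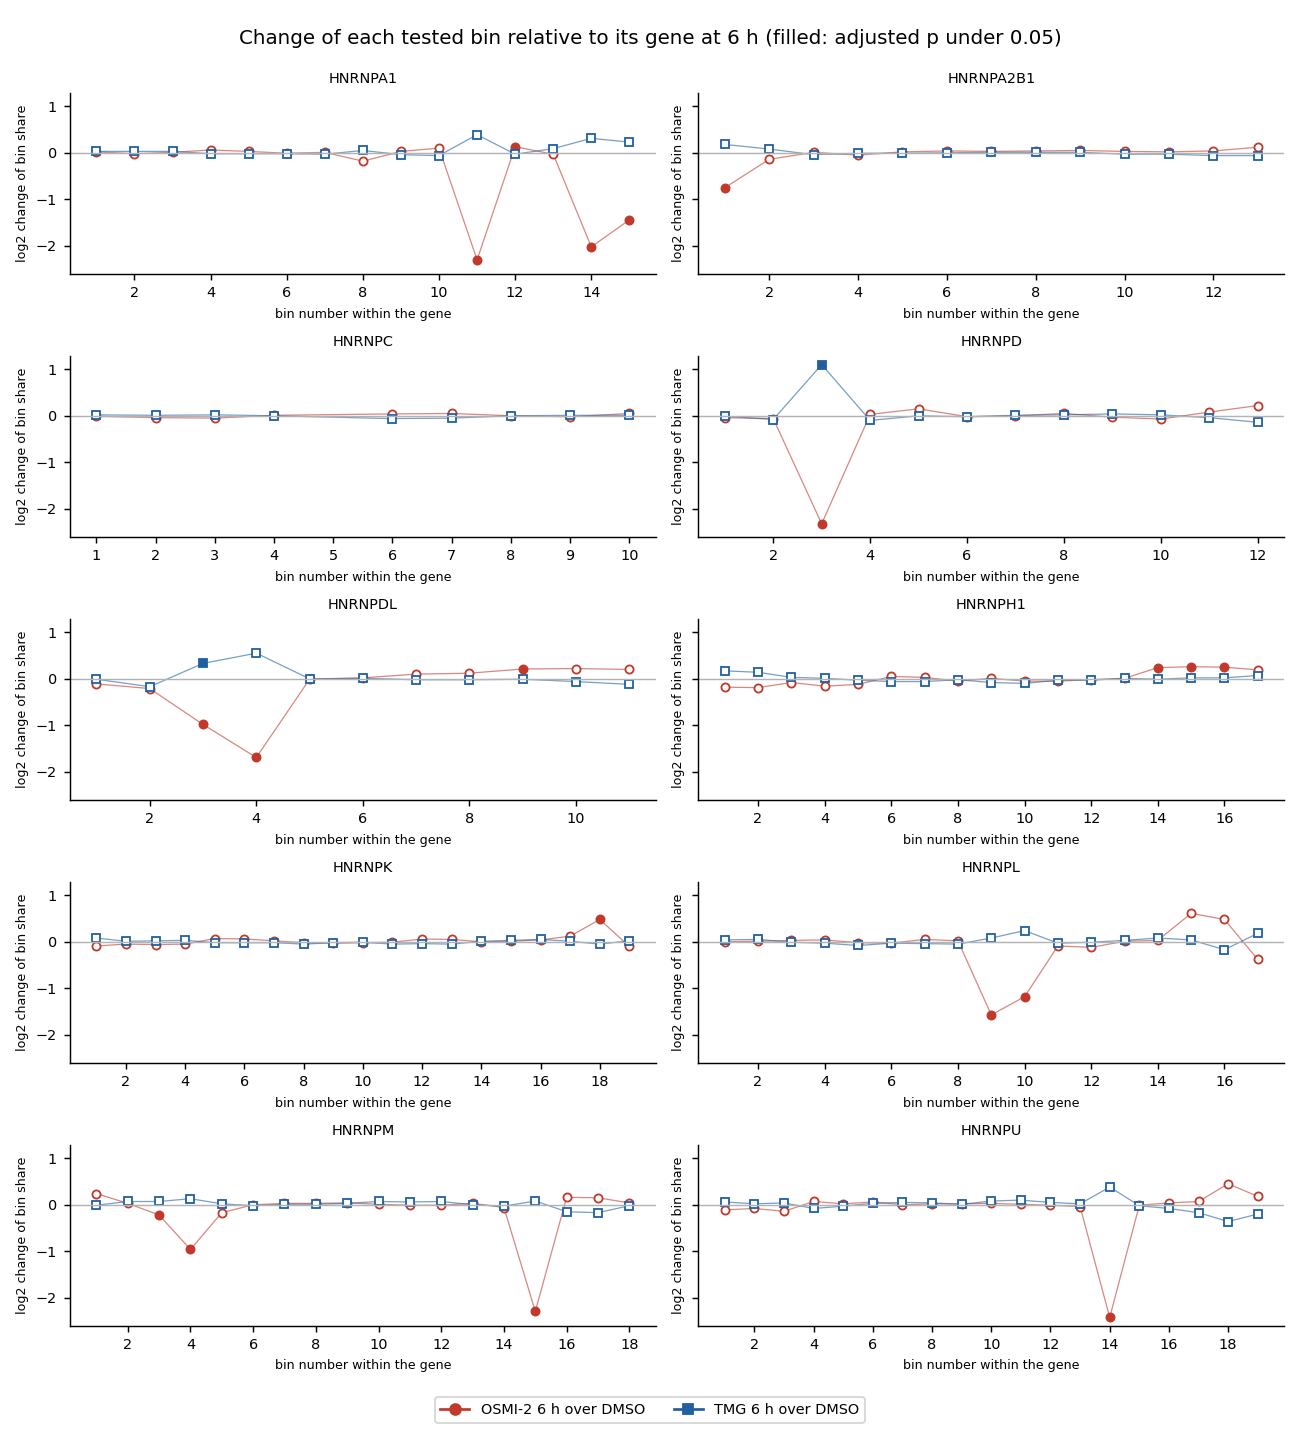
Log2 change of each tested bin (150 of 152 in each comparison) relative to its gene at 6 h, by bin number in each of the 10 genes, for OSMI-2 over DMSO (red circles) and TMG over DMSO (blue squares). Filled points have an adjusted p under 0.05. Most bins lie near 0, the 9 tested bins of HNRNPC between -0.05 and 0.05 for OSMI-2, and single bins of HNRNPA1, HNRNPD, HNRNPDL, HNRNPL, HNRNPM and HNRNPU stand out below 0 for OSMI-2.

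After TMG for 6 h, 2 of 150 member bins passed, 1.33% against 0.0121% of all 132668 bins, where 16 bins passed. HNRNPD_E003 went from 0.694%, 0.795% and 0.683% of the gene in DMSO to 1.61%, 1.65% and 1.41% in TMG. It rose by 1.10 (SE 0.08), 2.15-fold (adjusted p = 1.49e-06), and every TMG library was above every DMSO library. This call held in every alternative and with any single library left out, and the authors' deposited table gives a log2 change of 1.10 with an adjusted p of 7.18e-25. The HNRNPD gene fell in the same comparison. The other bin, HNRNPDL_E003, went from 4.68%, 5.23% and 4.98% to 5.85%, 6.35% and 6.56% (log2 change 0.33, SE 0.05, adjusted p = 0.0498). Its call is at the threshold: diffSpliceDGE gave an adjusted p of 0.687, the authors' deposited table gave 0.00312, and the call was lost without DMSO library a (0.0863) or c (0.14) or TMG library b (0.375) or c (0.487).

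HNRNPDL_E004 measured 1.33%, 1.99% and 2.00% in DMSO and 2.43%, 3.05% and 2.23% in TMG for 6 h. The groups did not overlap and the difference of 0.55 did not pass (adjusted p = 0.63), although diffSpliceDGE called it (adjusted p = 0.0368). HNRNPA1_E011 and HNRNPA1_E014 differed by 0.39 and 0.31 without passing, and both passed without DMSO library b (0.56 and 0.47, with 0.0118 and 0.000948). At 2 h of TMG, 2 of 151 member bins passed (1.32% against 0.142% of all bins): the intron HNRNPL_E009, and HNRNPM_E017, which fell by 0.15 (adjusted p = 0.0436) and lost its call without any one of 5 libraries. The poison exon HNRNPL_E010 measured 0.390%, 0.414% and 0.391% in DMSO and 0.478%, 0.596% and 0.488% in TMG for 2 h, a difference of 0.38 that did not pass (adjusted p = 0.184). At 2 h of OSMI-2, 0 of 150 member bins passed by limma, diffSpliceDGE or the authors' adjusted p (0.00167% of all bins passed by limma). By limma, 7 member bins had an unadjusted p under 0.05, as did 3829 of all 119831 bins.

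The effects at 6 h differed between OSMI-2 and TMG, but each drug was given only in its own experiment. Drug and experiment therefore cannot be told apart. In DMSO for 6 h, detained introns took 0.756% to 1.21% of counts in the OSMI-2 experiment and 0.462% to 0.669% in the TMG experiment. As an interaction of drug and experiment, the OSMI-2 effect minus the TMG effect on HNRNPD_E003 was -3.42 (SE 0.18, adjusted p = 5.33e-07), and on the HNRNPD gene it was 1.46 (SE 0.21, adjusted p = 0.00626). For HNRNPC the difference was -1.46 (SE 0.32, adjusted p = 0.0138). All 3 introns, 5 of 10 genes and 12 of 17 named bins passed, against 86.1%, 19.9% and 4.36% of all introns, genes and bins. The bins were chosen for their calls in these same libraries, so the interaction is no independent evidence for them. At 2 h, no difference between the drugs passed for a member gene, intron or named bin, with a lowest adjusted p of 0.0926 (background 0% of genes, 0.104% of introns and 0.00223% of bins). Between the times of 1 drug, the OSMI-2 effect at 6 h minus that at 2 h passed for 6 of 17 named bins (background 2.39%), of which HNRNPA1_E011 had -2.14, HNRNPD_E003 -1.99 and HNRNPDL_E004 -1.57. For TMG this difference passed for 0 of 10 genes (0.0242%; lowest adjusted p 0.45), 0 of 3 introns (0.0485%; 0.69) and 1 of 17 named bins (0.00518%), HNRNPD_E003, at 0.81 (SE 0.12, adjusted p = 0.0256).

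**Figure D5:**
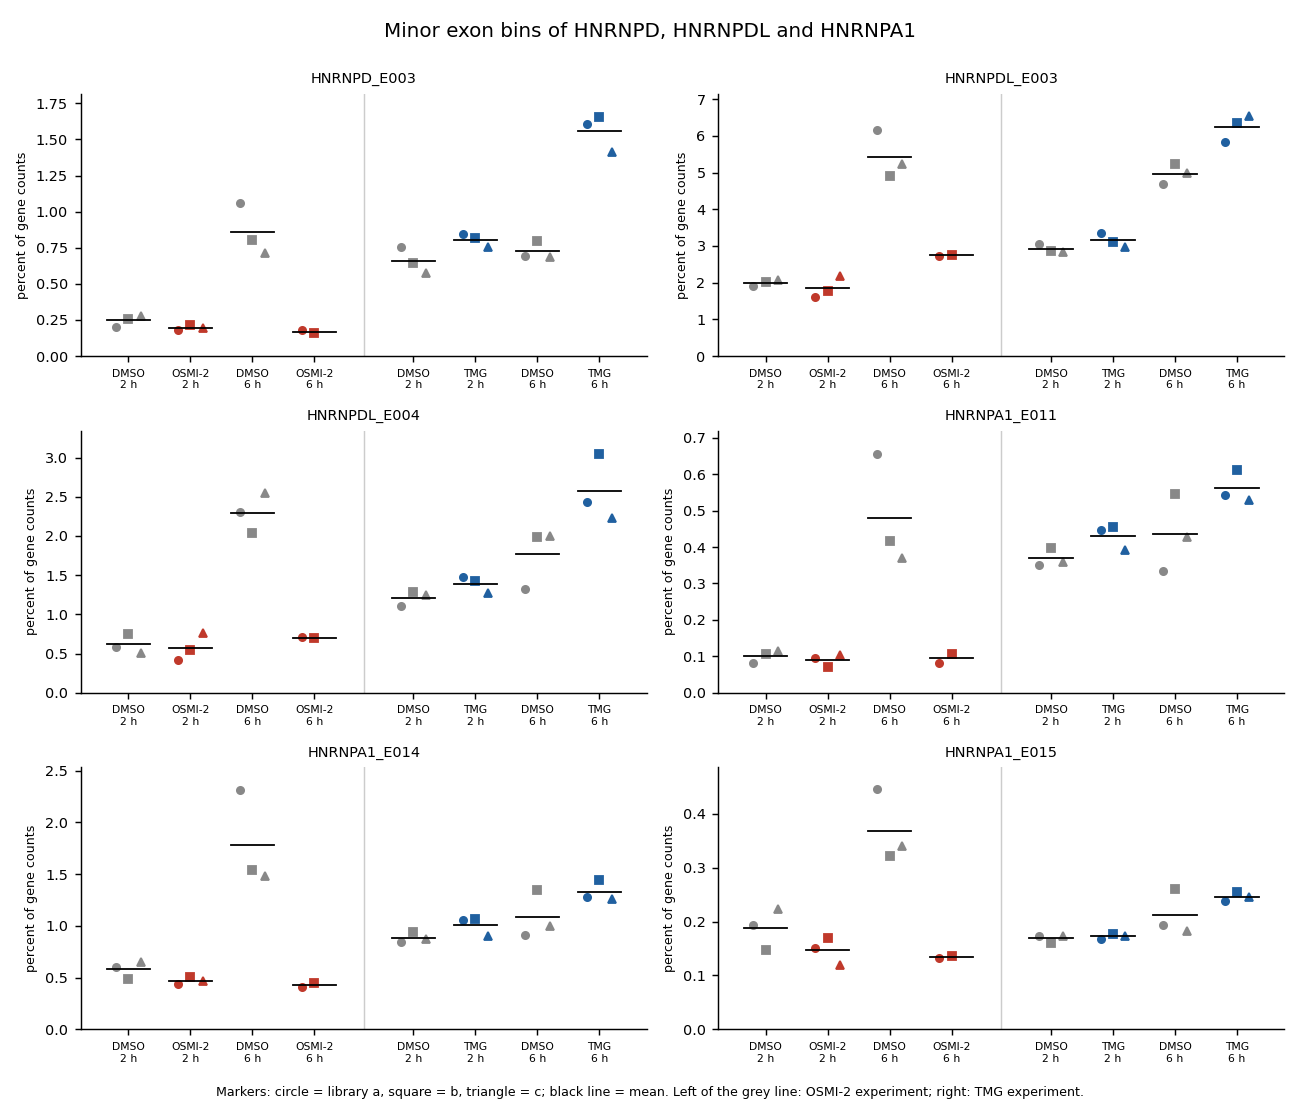
Share of the gene's counts, in percent on linear axes from 0, held by 6 minor bins of HNRNPD, HNRNPDL and HNRNPA1 in every library. Markers are libraries a, b and c, and black lines are group means. The OSMI-2 libraries of 6 h lie below their DMSO libraries in all 6 panels, and for HNRNPD_E003 the 3 TMG libraries of 6 h, at 1.41% to 1.65%, lie above every other library.

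The DMSO groups themselves differed between the times, and these libraries are also the reference of the drug comparisons above. In the OSMI-2 experiment, 3 of 10 member genes passed from 2 h to 6 h of DMSO, against 18.5% of all genes. HNRNPD fell by 1.17, HNRNPU by 1.14 and HNRNPM by 0.84 (adjusted p = 0.00478, 0.00716 and 0.0301). All 3 introns rose, HNRNPL_E009 by 1.56, HNRNPM_E015 by 1.77 and HNRNPU_E014 by 3.06 (background 90.1%). Of 150 member bins, 41 passed (27.3% against 10.1% of all bins). HNRNPD_E003 rose by 1.78, HNRNPDL_E003 by 1.43, HNRNPDL_E004 by 1.90, HNRNPA1_E011 by 2.20, HNRNPA1_E014 by 1.59 and HNRNPL_E010 by 1.30. The 6 h OSMI-2 differences for these bins were measured against the same high DMSO libraries.

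In the TMG experiment, 3 of 10 member genes passed from 2 h to 6 h of DMSO, against 45.9% of all genes. HNRNPDL fell by 0.41 (adjusted p = 3.03e-05), HNRNPD by 0.17 (0.0498), and HNRNPM rose by 0.28 (0.00145). Only 1 of 3 introns passed, HNRNPL_E009, which fell by 0.31 (background 20.3%). Of 151 member bins, 29 passed (19.2% against 4.18% of all bins). HNRNPDL_E003 rose by 0.77 and HNRNPDL_E004 by 0.53, and HNRNPL_E010 fell by 0.56. HNRNPD_E003 differed by 0.14 and did not pass (adjusted p = 0.518).

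Per kilobase of the gene's bins, HNRNPA1 had the highest level of the family in DMSO, 809 ± 15 CPM per kb in the TMG experiment (SD, n = 6, both times) and 602 ± 182 in the OSMI-2 experiment. HNRNPA2B1 was next in both, with 668 ± 65.6 and 405 ± 73.0. HNRNPDL (87.9 ± 10.5 in the TMG experiment, and a mean of 49.4 with a range of 32.3 to 58.8 in the other) and HNRNPD (52.0 ± 2.71 and 59.0 ± 25.8) were the lowest. In the TMG experiment the order between them was HNRNPK, HNRNPC, HNRNPM, HNRNPH1, HNRNPU and HNRNPL, and only HNRNPC, HNRNPM and HNRNPH1 overlapped their neighbours (293 ± 44.1 for HNRNPM). In the OSMI-2 experiment each gene overlapped the next in the order. The length counts every bin without detained introns, including long 3′ ends such as that of HNRNPD, and so lowers the value of a gene whose long forms are little used.

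The mean standardised log2 level of the 10 members over the 23 libraries was followed most closely by RAB11A (Pearson r = 0.982), PSMA1 (0.977), TFG (0.975), YWHAE (0.974) and ESD (0.973), of 11243 other genes compared. The members' mean was -1.91 to -1.05 in the DMSO libraries of 6 h in the OSMI-2 experiment, and -0.175 to 0.47 in all other libraries. The correlations therefore rest largely on that group. The libraries also share their experiment, GC slope and depth, so these values are descriptive. Among the members, HNRNPU (0.977), HNRNPA1 (0.976) and HNRNPK (0.926) lay close to that mean, and HNRNPC (0.219) and HNRNPL (-0.164) did not.

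A list of 25 other hnRNP genes and related splicing repressors had 24 members in the tables, PCBP1 being unmatched. By edgeR, 0 of 24 passed in each of the 4 drug comparisons. Of all genes, 0%, 4.94%, 7.91% and 6.03% passed for OSMI-2 at 2 h and 6 h and TMG at 2 h and 6 h. In that order, the unadjusted p was under 0.05 for 160 of 12343, 2882 of 12484, 2873 of 12361 and 2721 of 12103 genes. Among the 24 listed genes it was under 0.05 for 0, 4, 1 and 2. Their medians were 0.00, 0.39, -0.01 and 0.05, against -0.01, 0.15, -0.03 and -0.03 over all genes. Between DMSO at 2 h and 6 h, 1 rose and 4 fell in the OSMI-2 experiment, where 18.5% of all genes passed, with CELF1 highest (0.78) and HNRNPLL, a relative of HNRNPL, lowest (-1.08). In the TMG experiment 3 rose and 7 fell, where 45.9% of all genes passed, with PTBP2 (0.30), a repressor of neural exons, and HNRNPAB (-0.48) at the ends. The drugs' target genes differed from DMSO at 6 h: OGT was lower by 1.85 under OSMI-2 and by 0.48 under TMG. MGEA5 was lower by 1.93 under OSMI-2 and higher by 0.72 under TMG (edgeR, adjusted p from 6.01e-06 to 0.00164 for both genes). The DMSO reference moved too. From 2 h to 6 h of DMSO, OGT rose by 1.81 in the OSMI-2 experiment and by 0.60 in the TMG experiment, and both passed. MGEA5 differed by 0.53 and 0.17 without passing.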

How the data were processed

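Whole-number counts of reads per bin were deposited in 4 tables, 1 for each drug and time, with the authors' own log2 fold changes and adjusted p-values in DEXSeq-style columns, per the file headers. Reads were aligned with STAR to hg19, per the submitters' processing notes. The counting program, annotation and strand setting are not given in the sources used here. Libraries were made with a stranded polyA kit, per the labels' protocols.

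From the counts, genes were tested with edgeR 4.0.16 in R 4.3.3 (TMM over genes and detained introns, filterByExpr, quasi-likelihood test). Bins were tested with limma 3.58.1 on log2((bin + 1)/(gene + 1)), for bins and genes with a mean count of at least 10, with Benjamini-Hochberg adjustment over all features of a class. DESeq2 1.42.0 was an alternative for genes. Differences of effects were interaction terms. Intervals are exact binomial ones at 95% and cover counting error only.

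The members and gene lists were chosen with earlier results of these data known. The planned rule names all 10 members, their detained introns, and the ends of a list of 25 other repressors. Both cassette bins, and the other bins called in a drug comparison, were named after their values were seen. The test over bins of every class was added after seeing the data. As first run it recovered none of the 2-fold changes put into simulated data, because bins of genes with a single exonic bin had no variance. Those bins were then left out, with the results in view, after which HNRNPD_E003 at TMG 6 h passed. On simulated data of OSMI-2 6 h and TMG 6 h, limma then recovered 51 and 109 of 200 2-fold bins and edgeR's diffSpliceDGE 100 and 142. Limma was kept, with the calls of both known and although diffSpliceDGE recovered more, because it uses the same ratio as the planned tests. The edgeR gene test recovered 23 of 200 2-fold genes at OSMI-2 6 h and 200 at TMG 6 h. The DMSO comparisons of 6 h with 2 h were scaled on their own libraries.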

Additional observations from a re-analysis of the deposited data

Results flagged for a closer look

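Effects of the drugs on family members differed between times or between drugs in 30 tests of the difference itself (edgeR for genes and limma for bins, interaction terms, Benjamini-Hochberg adjusted). The bins were chosen for their calls in the same libraries, and no cause was weighed. Each drug was given only in its own experiment, so a difference between drugs cannot be told apart from a difference between experiments. All values are differences of log2 effects.

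For OSMI-2, the effect at 6 h minus that at 2 h passed for the detained introns HNRNPL_E009 (-1.40), HNRNPM_E015 (-2.14) and HNRNPU_E014 (-2.20), where 74.6% of all introns passed. It also passed for HNRNPA1_E011 (-2.14), HNRNPA1_E014 (-1.73), HNRNPA1_E015 (-1.09), HNRNPD_E003 (-1.99), HNRNPDL_E003 (-0.85) and HNRNPDL_E004 (-1.57), where 2.39% of all bins passed. For TMG, only HNRNPD_E003 passed among the members tested (0.81, adjusted p = 0.0256), where 0.00518% of all bins did.

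At 6 h, the OSMI-2 effect minus the TMG effect passed for the genes HNRNPA1 (0.80), HNRNPC (-1.46), HNRNPD (1.46), HNRNPM (1.21) and HNRNPU (1.06), where 19.9% of all genes passed and their median was 0.36. The detained introns differed by -1.65 for HNRNPL_E009, -2.37 for HNRNPM_E015 and -2.79 for HNRNPU_E014 (86.1% of all introns). Bins lower under OSMI-2 than under TMG were HNRNPA1_E011 (-2.69), HNRNPA1_E014 (-2.33), HNRNPA1_E015 (-1.67), HNRNPA2B1_E001 (-0.93), HNRNPD_E003 (-3.42), HNRNPDL_E003 (-1.31), HNRNPDL_E004 (-2.24), HNRNPL_E010 (-1.42) and HNRNPM_E003 (-0.30). Bins higher were HNRNPH1_E014 (0.25), HNRNPH1_E015 (0.25) and HNRNPK_E018 (0.53), and 4.36% of all bins passed in either direction.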

How the results depend on the processing

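No value of a member reversed its sign past the threshold in any alternative run. Of the alternative values of single genes and bins, 80 lost a call and 23 gained one. Another 1295 kept their call and sign, whatever their size, or stayed uncalled within 1 SE of the reported value. The other 53 stayed uncalled and moved by more than that. Member genes called after OSMI-2 for 6 h, 2 as reported, were 1 with TMM over genes only, 5 by DESeq2 (9.69% of all genes) and 9 with all libraries in 1 fit (47% of all genes), and 0 to 8 when a library was left out. After TMG for 6 h the 2 genes became 0 with all libraries in 1 fit and 0 to 3 when a library was left out. Detained introns called after TMG for 2 h, 2 as reported, were 0 with all libraries in 1 fit, 1 by the authors' adjusted p and 1 to 3 when a library was left out. They were 0 to 1 at TMG 6 h and 3 at OSMI-2 6 h. The 19 bins of any class after OSMI-2 for 6 h became 9 by diffSpliceDGE and 12 to 20 when a library was left out. The 2 at TMG 2 h became 1 by diffSpliceDGE, 1 with the bin left out of the denominator, 0 with all libraries in 1 fit, and 0 to 3 when a library was left out. The 2 at TMG 6 h became 1 with a pseudocount of 0.5, with a mean count of at least 50, with the bin left out of the denominator or with all libraries in 1 fit, and 1 to 5 when a library was left out. The causes were not tested. A GC term, which split the libraries at a GC slope of 0.9, moved HNRNPC at OSMI-2 2 h from -0.14 to 0.23 without a call. No paired analysis was possible because the table columns carry letters and not the replicate numbers of the labels. Leaving out 1 of the 2 OSMI-2 libraries of 6 h leaves a lone sample, assumed to vary like its DMSO group. The edgeR test recovered 23 of 200 simulated 2-fold genes at OSMI-2 6 h, so a gene not called there is not shown to be unaffected.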
